A study of Mus musculus with 17 samples.

Results

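The 7 genes described here are the endocytic receptors Lrp2 (megalin) and Cubn (cubilin), the endocytic adaptor Dab2, the scaffold proteins Pdzk1 and Slc9a3r1 of the apical cell surface, the surface serine protease Tmprss2 and the fatty acid-binding protein Fabp3. They were selected on their signal in blastocysts, in earlier results of these arrays, and taken as every probe set that the platform annotates to one of these genes and to no other gene. That gave 11 probe sets of 12488 on the array, and 7 genes of 8251 with a probe set of their own. Measurements were signal intensities on 17 Affymetrix MG-U74Av2 arrays, 1 array per sample, from mouse oocytes (n = 4), 1-cell embryos (n = 3), 2-cell embryos (n = 3), 8-cell embryos (n = 4) and blastocysts (n = 3). Per the labels, total RNA was amplified in 2 rounds of in vitro transcription. The stage is all that the labels say of a sample. Strain, age, any hormone treatment, the number of embryos per sample and whether replicates came from different animals are not stated, so the p-values cover no more than the spread between samples, and that spread may be technical. Whole embryos were profiled, so a blastocyst signal pools the outer trophectoderm with the inner cell mass, and fewer cells of a type cannot be told apart from less RNA per cell.

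Megalin and cubilin are large receptors that bind vitamin carriers, lipoproteins and other proteins at the apical surface of absorptive epithelia, such as the kidney tubule and the visceral endoderm, and carry them into the cell. Dab2 binds the cytoplasmic tail of megalin and links it to clathrin and its adaptors. Pdzk1 and Slc9a3r1, also named Nherf1, hold membrane proteins at microvilli through their PDZ domains, and Slc9a3r1 joins them to ezrin and so to the actin core. Tmprss2 is a transmembrane protease of epithelial cells, and Fabp3 carries long-chain fatty acids inside cells that take them up or burn them. The trophectoderm of the blastocyst is the first polarised transporting epithelium of the embryo.

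Blastocyst signals were high for most of these genes, and the genes had been chosen for this, so their promoters are shown first, as the sequence in front of the start site of genes with high blastocyst signals. Each stretch holds 300 bases, 250 before and 50 after an annotated start, from RefSeq on build GRCm38.p6, and is written 5′ to 3′ on the strand of the gene. All 7 genes matched the promoter table, with 9 promoters among them. Letters in capitals mark matches on either strand to GGAATG, bound by TEAD factors, to AGATAA or TGATAA, bound by GATA factors, or to GGGCGG, bound by SP and KLF factors. The Lrp2 promoter lies at chr2:69585980-69586279 on the minus strand, that of Slc9a3r1 at chr11:115163091-115163390 on the plus strand and that of Tmprss2 at chr16:97611146-97611445 on the minus strand. The first Dab2 promoter lies at chr15:6299539-6299838 and the second at chr15:6386498-6386797, both on the plus strand.
Lrp2: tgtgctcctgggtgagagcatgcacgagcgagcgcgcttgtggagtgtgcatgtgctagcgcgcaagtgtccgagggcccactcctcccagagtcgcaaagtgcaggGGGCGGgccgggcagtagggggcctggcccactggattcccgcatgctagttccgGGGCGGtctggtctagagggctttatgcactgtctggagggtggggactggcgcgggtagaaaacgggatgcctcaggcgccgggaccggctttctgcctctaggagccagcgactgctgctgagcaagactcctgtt
Slc9a3r1: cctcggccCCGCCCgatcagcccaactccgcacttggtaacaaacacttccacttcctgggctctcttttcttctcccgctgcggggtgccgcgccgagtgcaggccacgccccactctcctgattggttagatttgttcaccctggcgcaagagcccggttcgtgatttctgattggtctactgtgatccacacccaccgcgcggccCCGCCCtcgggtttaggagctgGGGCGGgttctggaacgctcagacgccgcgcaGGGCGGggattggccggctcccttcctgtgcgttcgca
Tmprss2: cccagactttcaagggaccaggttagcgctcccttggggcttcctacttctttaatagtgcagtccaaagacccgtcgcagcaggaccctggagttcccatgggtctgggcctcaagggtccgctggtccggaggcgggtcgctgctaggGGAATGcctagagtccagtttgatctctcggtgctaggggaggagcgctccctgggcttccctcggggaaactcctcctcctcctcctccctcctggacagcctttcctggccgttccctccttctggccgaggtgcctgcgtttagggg
Dab2, promoter 1: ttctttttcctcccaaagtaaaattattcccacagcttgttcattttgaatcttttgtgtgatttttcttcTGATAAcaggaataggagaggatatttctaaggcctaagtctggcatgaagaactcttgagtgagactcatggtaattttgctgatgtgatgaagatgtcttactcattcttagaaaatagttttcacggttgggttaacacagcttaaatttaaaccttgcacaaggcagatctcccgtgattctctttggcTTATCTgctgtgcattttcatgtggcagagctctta
Dab2, promoter 2: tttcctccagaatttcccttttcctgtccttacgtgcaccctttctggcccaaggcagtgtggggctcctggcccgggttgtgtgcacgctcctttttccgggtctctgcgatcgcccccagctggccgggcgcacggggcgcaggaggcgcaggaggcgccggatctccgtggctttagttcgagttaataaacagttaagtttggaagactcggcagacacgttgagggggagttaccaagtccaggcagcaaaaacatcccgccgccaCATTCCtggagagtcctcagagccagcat

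The TEAD letters were found once in the Tmprss2 promoter, from 100 to 95 bases before the start, and once as CATTCC on the other strand in the second Dab2 promoter. That was 2 of 9 promoters, against 14.7% of 32851 promoters of the same length in the table. The GATA letters were found in 1 of 9, the first Dab2 promoter, against 18.6%. The SP and KLF letters were found in 3 of 9, against 35.7%: there were 4 matches in the Slc9a3r1 promoter, 2 in that of Lrp2 and 1 in the first promoter of Pdzk1. TATAAA, the TATA box, was in 0 of 9 (13.6% of all), and the palindromic AP-2 consensus was in 0 of 9 (6.32%). None of the motifs searched was shared by most of the 7 genes, and the Cubn and Fabp3 promoters held none of these letters. Such matches describe sequence only, and these arrays measured no binding.

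The arrays also differed by stage in measures other than the 7 genes. The authors' scaling gave every array nearly the same mean signal, so that a rise is a rise relative to the rest of the array. Control transcripts added before hybridisation had a mean log2 signal of 11.1 ± 0.300 (SD, n = 4) at the 8-cell stage and 9.92 ± 0.174 (n = 3) in blastocysts. Scaled on them, the median gene rose by 0.95 (log2) from the 8-cell stage to the blastocyst, where it changed by -0.06 as deposited, and it changed by -0.91, 0.22 and -0.60 at the 3 earlier steps, where it had changed by 0.03, 0.04 and -0.07. The second 8-cell array stood apart from the other 3: the signal of Ovgp1, an oviduct glycoprotein, was 6212.4 on it, and 19 markers of oviduct, blood, cumulus and other cells summed to 8785, against 1315 to 2198 on the other 8-cell arrays and 1057 to 1501 in blastocysts. The 3 2-cell arrays were raised too, with sums of 2582 to 3346 and Ovgp1 signals of 688.1 to 1271.8. Sums in 1-cell embryos were 1382 to 1873. From 1-cell to 2-cell embryos 6 of the 19 markers (31.6%) were called higher and 0 lower, where 25.9% of all genes were called higher and 22.8% lower. Control probe sets for 18S ribosomal RNA had a mean log2 signal of 8.59 ± 0.321 (n = 4) in oocytes, 13.5 ± 0.209 (n = 3) in 1-cell and 10.3 ± 0.0876 (n = 3) in 2-cell embryos, so they differed most over the 2 steps that are tested below for the 7 genes. The 3' to 5' ratio of the beta-actin control probe sets, a sign of RNA quality, was lower in blastocysts (mean log2 1.14 ± 0.171, n = 3) than at the 8-cell stage (1.96 ± 0.141, n = 4), while that of Gapdh was higher (2.62 ± 0.263 against 1.14 ± 0.639). The part of these differences in the results below was not tested.

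Values after ± are SDs over arrays for signals and SEs for differences. Differences are in mean log2(signal + 11), from a limma fit over all 17 arrays, and on this scale changes of dim genes come out too small. A signal under 41.1, the median of all values, counts as dim, and a fold taken from a dim stage depends on the offset. All 11 probe sets and all 7 genes exceeded that value on at least 3 arrays, which was the filter for testing. Because the genes were picked for their blastocyst signal, their values at the 8-cell stage and in blastocysts are descriptions without a test, and only the first 2 steps, oocyte to 1-cell and 1-cell to 2-cell, were tested for them. A gene with several probe sets is represented by the one with the highest mean. No probe set's signal is set against that of another, since each binds with its own strength.

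**Figure D1:**
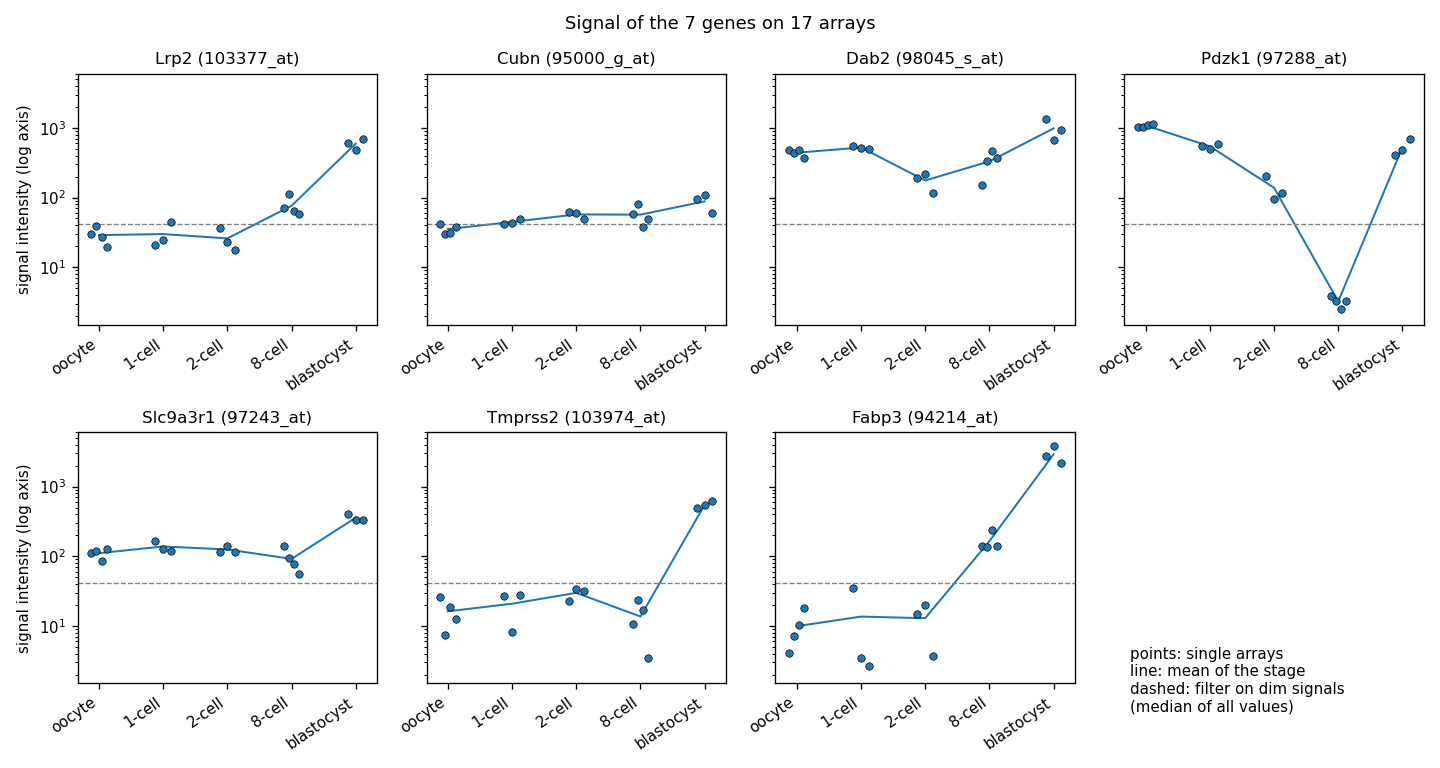
Signal intensity (log axis) of the 7 genes by stage, 1 panel per gene; points are single arrays, lines join the stage means, and the dashed line is the filter on dim signals at 41.1. All 3 blastocyst arrays lie above all 4 8-cell arrays for 6 of the genes, with Cubn as the exception, and Pdzk1 is at its highest in oocytes.

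Megalin transcript came up between the 2-cell stage and the blastocyst. The Lrp2 signal (probe set 103377_at) was 29.9, 39.3, 26.7 and 19.5 in oocytes, 20.9, 24.2 and 44.5 in 1-cell embryos, and 36.9, 23.3 and 17.4 in 2-cell embryos. It was 69.8, 111.5, 65.0 and 58.2 at the 8-cell stage and 599.4, 481.1 and 699.8 in blastocysts. Lrp2 was thus dim on all but 1 of the first 10 arrays, already above them on every 8-cell array, and clearly highest on every blastocyst array. Means were 76.1 ± 24.1 at the 8-cell stage and 593 ± 109 in blastocysts, a difference of 2.81 ± 0.26, or 7.04-fold. This was the 74th largest rise of 6044 genes, and the rise from the 2-cell to the 8-cell stage was 1.24 ± 0.26. The 8-cell array with the oviduct transcripts had the highest Lrp2 signal of its stage, and without it the 8-cell to blastocyst difference was 2.99. In the order of the stages, blastocysts and 8-cell embryos each stood clear of the next stage, while 1-cell embryos, oocytes and 2-cell embryos overlapped.

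Cubilin, which has no membrane anchor of its own and reaches the surface with megalin and amnionless, was close to the dim range throughout. On the probe set with the higher mean, 95000_g_at, Cubn gave 41.1, 30.4, 31.3 and 38.0 in oocytes, 41.0, 43.3 and 49.6 in 1-cell embryos and 61.4, 60.8 and 49.3 in 2-cell embryos. At the 8-cell stage it gave 58.5, 80.6, 37.9 and 49.9, and in blastocysts 95.6, 108.6 and 60. Its stage means rose in the order oocyte, 1-cell, 8-cell, 2-cell and blastocyst, and neighbours in this order overlapped at every place. Blastocysts had 88.1 ± 25.2 against 56.7 ± 18.02 at the 8-cell stage, a difference of 0.55 ± 0.24 that ranked 1445th of 6044 genes. One blastocyst array, at 60, lay below the 8-cell array at 80.6, which was the array with the oviduct transcripts. Without it the groups did not overlap and the difference was 0.71. The other probe set, 94999_at, was lower in blastocysts (33.8 ± 11.05) than at the 8-cell stage (39.9 ± 4.91), with overlapping arrays. A rise of Cubn in blastocysts therefore rests on 1 of 2 probe sets.

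Dab2, the adaptor, was a maternal transcript that fell at the 2-cell stage and was highest in blastocysts. Its probe set 98045_s_at gave 478.3, 431.9, 477.3 and 368.3 in oocytes, 553.7, 512.3 and 499.4 in 1-cell embryos and 190.6, 220.9 and 115.8 in 2-cell embryos. It gave 151.4, 332.4, 463.7 and 369.7 at the 8-cell stage and 1338.1, 661.4 and 943.3 in blastocysts. All 2-cell arrays were below all 1-cell arrays, and Dab2 fell by 1.56 ± 0.30 on the log2 scale between them (adjusted p = 1.99e-04, limma with Benjamini-Hochberg adjustment). The 8-cell arrays spread from near the 2-cell values to near the oocyte values, and every blastocyst array was above every other array. Between the 8-cell stage (329 ± 131) and the blastocyst (981 ± 340) the difference was 1.59 ± 0.28, or 3.01-fold. All 1-cell arrays lay above all oocyte arrays, but the difference of 0.25 ± 0.28 was not called (adjusted p = 0.543).

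The other 2 Dab2 probe sets agreed on some of these steps only. Probe set 104633_at also fell from 1-cell (190 ± 17.4) to 2-cell embryos (62.5 ± 23.5), 2.84-fold (adjusted p = 1.15e-04, limma), and had its highest values in blastocysts (310.7, 528.9 and 348.9). At the 8-cell stage it gave 53.5, 24.6, 48.8 and 55.5, so that it stayed low there, whereas 98045_s_at had a mean above that of the 2-cell stage. Its 8-cell to blastocyst difference was 2.85 ± 0.26, or 7.22-fold. Probe set 98044_at moved little, with stage means between 42.7 and 59.9, although its blastocyst arrays (53.8 to 60.4) lay just above its 8-cell arrays (37.9 to 50). The suffix in 98045_s_at marks a probe set whose probes can also bind other transcripts.

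**Figure D2:**
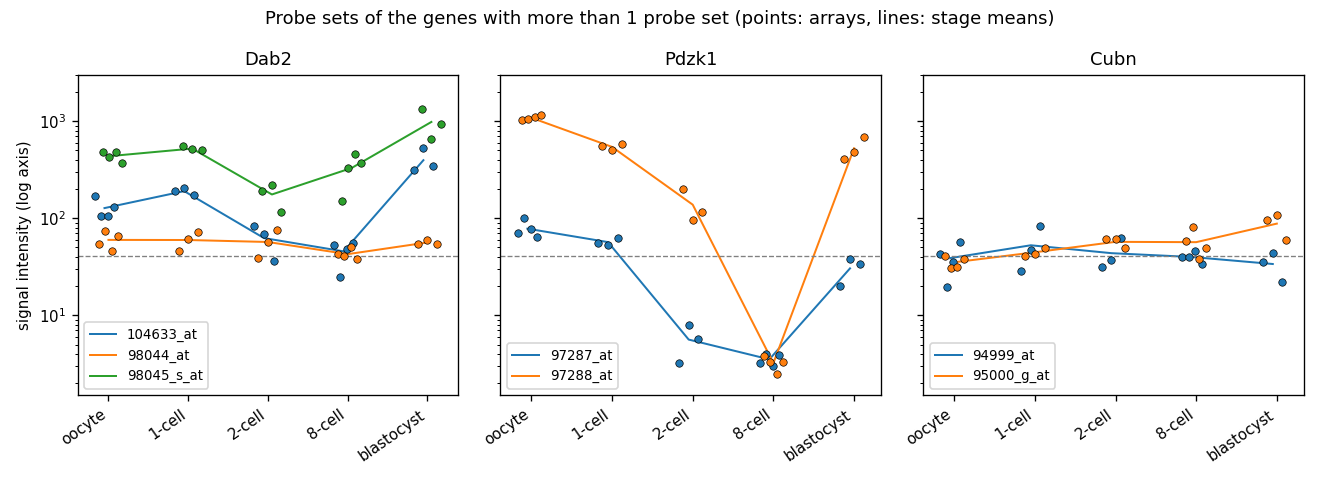
Signal intensity (log axis) of each probe set of Dab2, Pdzk1 and Cubn, the genes with more than 1; points are arrays, lines join stage means, and the dashed line is the filter at 41.1. Both Pdzk1 probe sets have their lowest mean at the 8-cell stage and rise in blastocysts, where 97287_at stays under the filter. Of the Dab2 probe sets, 2 of 3 are highest in blastocysts. From the 8-cell stage to the blastocyst the Cubn probe sets differ by 0.55 and -0.21 (log2).

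Pdzk1, a scaffold with several PDZ domains, had the largest fall and the largest rise between consecutive stages of the 7 genes. Its signal was highest in oocytes, fell step by step to nearly nothing and was higher again in blastocysts. Probe set 97288_at gave 1035.9, 1041.8, 1099.5 and 1152.5 in oocytes, 549.0, 501.6 and 577.7 in 1-cell embryos and 201.8, 96.3 and 115.8 in 2-cell embryos. At the 8-cell stage it gave 3.8, 3.3, 2.5 and 3.3, and in blastocysts 408.7, 478.3 and 688.5. No arrays overlapped between neighbouring stages, and oocytes remained above blastocysts. Pdzk1 fell by 0.98 ± 0.21 from oocytes (1082 ± 54.8) to 1-cell embryos (543 ± 38.4), with an adjusted p = 6.00e-04 (limma). It fell by a further 1.96 ± 0.22 to 2-cell embryos (138 ± 56.1; adjusted p = 1.57e-07, limma). The difference from the 2-cell to the 8-cell stage was -3.33 ± 0.21. From the 8-cell stage (3.23 ± 0.538) to the blastocyst (525 ± 146) it was 5.20 ± 0.21. The 8-cell signals lie below the offset, so that this difference is 6.93 with an offset of 1 and 3.95 with an offset of 32.

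The dimmer Pdzk1 probe set, 97287_at, changed in the same direction at each step, with 78.1 ± 15.6 in oocytes, 56.8 ± 4.95 in 1-cell embryos, 5.63 ± 2.40 in 2-cell embryos, 3.53 ± 0.499 at the 8-cell stage and 30.5 ± 9.36 in blastocysts. Its 2-cell and 8-cell arrays overlapped (-0.19), so a fall at that step rests on the brighter probe set. On 97287_at the fall to the 2-cell stage was called (-2.03 ± 0.25, adjusted p = 7.18e-07, limma), and that from oocytes to 1-cell embryos was not (-0.38 ± 0.24, adjusted p = 0.229). Among all 6044 genes, 30 (0.496%) fell without overlap at each of the first 3 steps and then had all blastocyst arrays above all 8-cell arrays, and 3 of these had every 8-cell array under a signal of 10. Pdzk1 was 1 of the 3. This description was set after its values had been seen.

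Slc9a3r1, the scaffold that binds ezrin, was present at a steady signal from the oocyte on and rose in blastocysts. Probe set 97243_at gave 111.7, 118.8, 86.6 and 126.2 in oocytes, 166.3, 128.1 and 120.8 in 1-cell embryos and 117.1, 142.4 and 116.6 in 2-cell embryos. It gave 139.6, 94.1, 78.1 and 55.6 at the 8-cell stage and 403.2, 335.0 and 337.1 in blastocysts. The 4 earlier stages overlapped with each other in the order of their means, and all blastocyst arrays were above every other array. The means of 91.9 ± 35.5 at the 8-cell stage and 358 ± 38.8 in blastocysts differ by 1.90 ± 0.22, or 3.74-fold.

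Tmprss2 was dim on every array before the blastocyst. Its probe set 103974_at gave 25.9, 7.5, 18.8 and 12.7 in oocytes, 26.5, 8.1 and 28.0 in 1-cell embryos, 23.1, 34.5 and 32 in 2-cell embryos and 10.7, 23.4, 17.1 and 3.5 at the 8-cell stage. Blastocysts gave 490.4, 545.9 and 612.8. The 4 earlier stages overlapped, and the lowest blastocyst array was far above the highest earlier one. Between the 8-cell stage (13.7 ± 8.54) and the blastocyst (550 ± 61.3) the difference was 4.57 ± 0.31, and it was 5.47 with an offset of 1 and 3.68 with an offset of 32. Of all genes, 57 (0.943%) were under the filter on every array before the blastocyst and above it on all 3 blastocyst arrays, a description made after the Tmprss2 values were known.

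Fabp3 appeared at the 8-cell stage and multiplied again in blastocysts. Probe set 94214_at gave 4.1, 7.1, 10.4 and 18.1 in oocytes, 34.7, 3.5 and 2.7 in 1-cell embryos and 14.9, 20.2 and 3.7 in 2-cell embryos. It gave 139.7, 135.3, 241.2 and 142.6 at the 8-cell stage and 2739.2, 3792.0 and 2183.8 in blastocysts. The first 3 stages were dim and overlapped, the 8-cell arrays were all above them, and the blastocyst arrays were all above the 8-cell arrays. The means of the last 2 stages, 165 ± 51.1 and 2905 ± 817, differ by 4.06 ± 0.37, or 16.6-fold. The earlier difference, from the 2-cell to the 8-cell stage, was 2.91 ± 0.37. This onset at the 8-cell stage, followed by a second rise, was found for 25 genes (0.414%) when it was defined after seeing Fabp3.

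**Figure D3:**
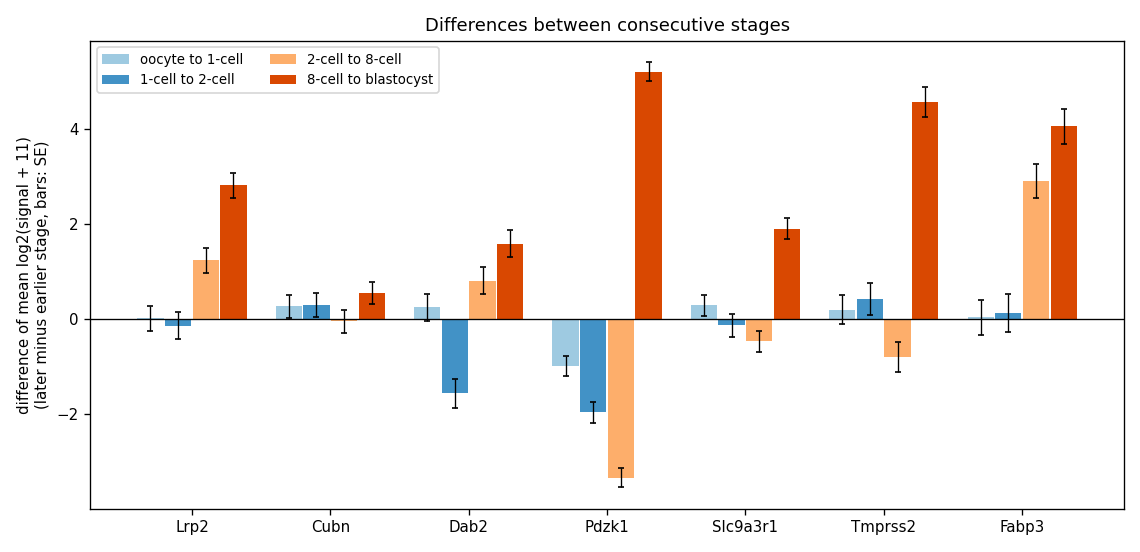
Differences of mean log2(signal + 11) between consecutive stages for the probe set that stands for each gene; bars above 0 are higher at the later stage, and error bars are the SE of the limma fit. Pdzk1 has 3 falls (-0.98, -1.96 and -3.33) and then the tallest bar (5.20), and Lrp2 and Fabp3 have upward bars at both of the last 2 steps.

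Before the late rises, the calls among the 7 genes were falls of Pdzk1 and Dab2. From oocytes to 1-cell embryos 1 of 7 genes, Pdzk1, was called, where 38.9% of 6044 genes were called in either direction. The median difference was 0.20 (0.03 over all genes). The 6 uncalled differences lay between 0.02 for Lrp2 (adjusted p = 0.973, limma) and 0.29 for Slc9a3r1 (adjusted p = 0.340, limma). With the arrays scaled on the added control transcripts these 6 turned negative, from -0.51 for Tmprss2 to -0.86 for Dab2, and 3 of 7 genes were called lower, with Dab2 (adjusted p = 0.0466, limma) and Slc9a3r1 (-0.75, adjusted p = 0.0361, limma) beside Pdzk1. Under that scaling the median of all genes was -0.91. From 1-cell to 2-cell embryos, 2 of 7 genes, Pdzk1 and Dab2, were called, both lower, where 48.7% of genes were called in either direction. The other 5 lay between -0.14 for Lrp2 (adjusted p = 0.727, limma) and 0.42 for Tmprss2 (adjusted p = 0.330, limma). Nothing is read from these counts beside the shares over all genes, because Lrp2, Tmprss2 and Fabp3 passed the filter through their later stages and were above 41.1 on 1, 0 and 0 of the 10 arrays up to the 2-cell stage.

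The later steps are given as description. From the 2-cell to the 8-cell stage, Lrp2 and Fabp3 had all 8-cell arrays above all 2-cell arrays and Pdzk1 had all below, 3 of 7 without overlap where 53.3% of genes had none, with a median difference of -0.04 (-0.07 over all genes). From the 8-cell stage to the blastocyst, 6 of 7 genes had all later arrays above all earlier ones (23.4% of genes), and the median difference was 2.81 (-0.06 over all genes). The choice of the genes fixes this last count, so nothing is read from it. Set against oocytes, 6 genes had all blastocyst arrays higher (32.9% of genes) and Pdzk1 had all lower (35.4% of genes). The blastocyst minus oocyte differences were 7.13 for Fabp3, 4.41 for Tmprss2, 3.93 for Lrp2, 1.61 for Slc9a3r1, 1.09 for Dab2, 1.07 for Cubn and -1.06 for Pdzk1. Of the 7 genes, 5 (Lrp2, Dab2, Slc9a3r1, Tmprss2 and Fabp3) had their 3 blastocyst arrays above all 14 others, as did 684 genes in all (11.3%). The genes were chosen for their blastocyst signal, so nothing is read from this count or from those against oocytes. The name of a blastocyst group thus covers Pdzk1 only as a return to a lower signal than in the oocyte, and Cubn only on 1 probe set and with overlap.

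With the arrays scaled on the added control transcripts, every 8-cell to blastocyst difference was larger: 1.54 for Cubn, 2.73 for Dab2, 2.98 for Slc9a3r1, 3.88 for Lrp2, 5.18 for Fabp3, 5.35 for Tmprss2 and 5.76 for Pdzk1. Leaving out the 8-cell array with the oviduct transcripts gave 1.63 for Dab2, 1.93 for Slc9a3r1, 3.98 for Fabp3, 4.76 for Tmprss2 and 5.21 for Pdzk1, beside the values for Lrp2 and Cubn above. These differences are as large without that array as with it, to within the SE of each.

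Among themselves the 7 genes followed different courses. Over the 17 arrays, which share 5 stages and 1 scaling, log2 signals of Lrp2 and Fabp3 correlated at r = 0.939, those of Slc9a3r1 and Tmprss2 at 0.901 and those of Lrp2 and Tmprss2 at 0.870. The receptor Lrp2 and its adaptor Dab2 correlated at 0.621, and Cubn and Dab2 at 0.175. Pdzk1 ranged from -0.236 with Cubn to 0.446 with Dab2. These are descriptions over stages and carry no p.

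The genes with the most similar course over the 17 arrays were found for each gene by Pearson correlation among the 6044 genes. For Lrp2 they were Tgif1, a homeobox repressor (r = 0.981), Enpep, a glutamyl aminopeptidase of brush borders (0.979), and the simple epithelial keratin Krt18 (0.973). Fabp3 was closest to Krt8 (0.983), the vesicle-tethering gene Vps54 (0.975) and the tropomyosin Tpm4 (0.973). For Tmprss2 they were BC053393 (0.975), the homeobox gene Msx2 (0.973) and Macroh2a1, a histone variant (0.972). Slc9a3r1 was closest to Plac1 (0.921), the kinase Ptk6 (0.920) and the transcription factor Gata2 (0.918). For Pdzk1 they were Pcbd2 (0.981), the fumarase Fh1 (0.979) and the glutaredoxin Glrx (0.973): Pcbd2, for example, had means of 675, 269, 125, 19.4 and 398 from oocyte to blastocyst, the same dip at the 8-cell stage. Dab2 was closest to Abcd3, a peroxisomal transporter (0.916), Pnpt1 (0.902) and the collagen Col4a1 (0.871), and Cubn to the aminopeptidase Lap3 (0.886), the lamin Lmnb1 (0.873) and the phosphatase Dusp9 (0.870).

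The other genes of these pathways were followed in 6 lists of endocytic receptors, receptor ligands, clathrin coat and endocytic adaptors, apical scaffolds and microvilli, surface serine proteases with their inhibitors, and fatty acid binding and use. From the 8-cell stage to the blastocyst, 56 of 146 measured genes were called higher and 18 lower (38.4% and 12.3%), where 23.1% of all genes tested were called higher and 20.6% lower. The median was 0.25 (-0.06 over all genes). With the arrays scaled on the added control transcripts, 100 were called higher and 6 lower. Under that scaling the median of all genes was 0.95, so nothing is read from these counts. As deposited and set against oocytes, 57 were called higher and 49 lower in blastocysts (39.0% and 33.6%), where 32.4% and 33.8% of all genes were. The median was -0.17 (-0.09 over all genes). By list it ran from -0.50 for receptor ligands to 1.28 for fatty acid binding and use.

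The other endocytic receptors moved in both directions. Of 13 measured receptors and their chaperones, 2 rose (15.4%), 4 fell (30.8%) and 7 were not called, where 23.1% of all genes rose and 20.6% fell. Their median was -0.27 (-0.06 over all genes). Lrp2 had been picked for its blastocyst signal, so no contrast with it is read from these counts. Lrpap1, the chaperone that escorts megalin and its relatives through the endoplasmic reticulum, rose from 123 ± 22.6 in 2-cell to 1435 ± 175 in 8-cell embryos (3.44 ± 0.16, adjusted p = 1.16e-13, limma). It then fell to 473 ± 23.9 in blastocysts (-1.57 ± 0.16, adjusted p = 6.39e-08), the step at which Lrp2 rose; that fall was not called with the control transcript scaling (-0.40, adjusted p = 0.278). Cd320, the receptor for vitamin B12 bound to transcobalamin, went from 1043 ± 181 to 173 ± 34.9 (-2.52 ± 0.18, adjusted p = 6.97e-10), and the transferrin receptor Tfrc from 2057 ± 285 to 407 ± 35.5 (-2.30 ± 0.20, adjusted p = 6.97e-09). Lrp10 had means of 6.97 to 22.9 before the 8-cell stage, 12.7 ± 7.51 at it and 55.4 ± 7.35 in blastocysts (1.53 ± 0.28). It passed the filter through its blastocyst arrays, so its place among the 2 that rose is a description only. Lrp1, the closest large relative of megalin, was not called (45.6 ± 6.396 and 56.1 ± 10.99, adjusted p = 0.348), although it was with the control transcript scaling (1.18, adjusted p = 0.00217).

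Of 17 measured ligands and cargo genes, 6 rose, 2 fell and 9 were not called, with a median of -0.05. Apoe, an apolipoprotein that megalin binds, had 98.2 ± 97.1 at the 8-cell stage and 555 ± 237 in blastocysts (2.74 ± 0.50, adjusted p = 1.28e-04). Tcn2, transcobalamin, rose from 62.3 ± 21.4 to 131 ± 23.2 (0.99 ± 0.23, adjusted p = 0.00122). The lipase Lpl rose from a dim 6.43 ± 3.24 to 73.7 ± 35.4 (2.22 ± 0.27, adjusted p = 9.41e-07) on 1 probe set, and changed by 0.24 on the other. The metallothionein Mt1 fell by 1.24 ± 0.28 (adjusted p = 0.00120), a call not made with the control transcript scaling (-0.07, adjusted p = 0.864).

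Of 45 measured genes of the clathrin coat, its adaptors and the endosome, 15 rose, 4 fell and 26 were not called, with a median of 0.25. The clathrin heavy chain Cltc rose from 508 ± 75.2 to 1495 ± 377 (1.52 ± 0.18, adjusted p = 5.41e-07) and the adaptor subunit Ap2a2 from 212 ± 42.7 to 497 ± 77.5 on 1 of 2 probe sets (1.19 ± 0.22, adjusted p = 1.20e-04; 0.08 on the other). Eps15, which sits at the rim of coated pits, rose from 117 ± 35.6 to 576 ± 52.8 (2.25 ± 0.20), and the retromer subunit Vps29 from 163 ± 47.1 to 758 ± 90.7 (2.18 ± 0.20). Snx2, another retromer protein, rose by 1.79 ± 0.20 on its brightest probe set and by 0.78 and 0.38 on the others. The lysosomal membrane protein Lamp2 fell from 831 ± 150 to 196 ± 30.8 (-2.01 ± 0.26). The light chain Clta, at 0.42 ± 0.14 (adjusted p = 0.0239), lost its call without 8-cell array 3 (adjusted p = 0.0695), blastocyst array 2 (adjusted p = 0.0531) or blastocyst array 3 (adjusted p = 0.154), with array weights (0.33, adjusted p = 0.0643) and with only the arrays of these stages (adjusted p = 0.0531). Ap2m1 (0.19 ± 0.19, adjusted p = 0.428) and Myo6, the motor that binds Dab2 (0.34 ± 0.26, adjusted p = 0.327), were not called, though both were with the control transcript scaling (1.35 and 1.37).

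The apical list moved further from the 8-cell stage, with 11 of 24 measured genes called higher, 3 lower, 10 not called and a median of 0.62. Against oocytes, 7 were called higher and 9 lower in blastocysts, with a median of -0.27. Ezrin, moesin and radixin, which tie Slc9a3r1 and the membrane to actin, were all higher in blastocysts than at the 8-cell stage. Ezr rose from 61.5 ± 20.7 to 397 ± 24.96 (2.55 ± 0.24, adjusted p = 2.52e-08) and Msn from 49.95 ± 17.8 to 767 ± 208 (3.69 ± 0.26, adjusted p = 3.39e-10). Rdx rose from 201 ± 67.4 to 486 ± 96.03 (1.28 ± 0.21, adjusted p = 4.08e-05). Enpep had the largest rise of the list on its brighter probe set, from 82.7 ± 32.2 to 2212 ± 358 (4.64 ± 0.31), while its other probe set changed by -0.26. Myo5b, a motor that carries recycling endosomes to the apical surface, rose from 14.2 ± 5.23 to 208 ± 10.9 (3.14 ± 0.19), and by 0.28 on its other probe set. The phosphatase Alppl2 fell from 6079 ± 677 to 817 ± 270 (-2.92 ± 0.21). Slc9a3r2, the close relative of Slc9a3r1, was near the filter and not called (46.1 ± 17.8 and 43.4 ± 18.9, adjusted p = 0.861), and its small difference of -0.07 became a called 0.84 with the control transcript scaling (adjusted p = 0.0299). Villin, Vil1, had 3.40 ± 1.97 at the 8-cell stage and 0.93 ± 0.40 in blastocysts, dim at both.

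Of 19 measured surface proteases and inhibitors, 7 rose, 1 fell and 11 were not called, with a median of 0.39. Htra1, a secreted serine protease, rose from 51.8 ± 20.8 to 410 ± 96.9 (2.79 ± 0.25, adjusted p = 1.13e-08) and the inhibitor Serpinb6a from 324 ± 167 to 2187 ± 255 (2.83 ± 0.34, adjusted p = 7.60e-07). F2r, a receptor cut by serine proteases, rose from 33.5 ± 13.9 to 257 ± 137 on 1 probe set (2.53 ± 0.30) and changed by 0.23 on the other. The metalloprotease inhibitor Timp3 rose from a dim 7.35 ± 4.54 to 62.7 ± 12.9 (2.02 ± 0.30). Spint1, an inhibitor of epithelial surface proteases, had a difference of 0.78 ± 0.26 (adjusted p = 0.02004), a call lost without 8-cell array 1 (adjusted p = 0.0712), blastocyst array 1 (adjusted p = 0.0786) or blastocyst array 3 (adjusted p = 0.0741). Prss8, a membrane-anchored serine protease like Tmprss2, was at 72.0 ± 20.6 and 128 ± 15.9 (0.76 ± 0.33, adjusted p = 0.0673), and its dimmer probe set was called (1.31 ± 0.32, adjusted p = 0.00206). Prss8 was called higher in 7 of its alternatives, with 1.79 under the control transcript scaling (adjusted p = 1.14e-04), 1.04 as the mean over its probe sets (adjusted p = 0.00254) and adjusted p-values of 0.0260 to 0.0485 in the others.

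Of 28 measured genes of fatty acid binding and use, 15 rose, 4 fell and 9 were not called, and the median of 0.96 was the highest of the 6 lists. Plin2, a coat protein of lipid droplets, rose from 212 ± 57.5 to 1686 ± 602 (2.90 ± 0.25, adjusted p = 6.62e-09). The thiolases Acaa1a and Acaa2 of peroxisomes and mitochondria rose by 2.92 ± 0.38 and 2.62 ± 0.20. Cpt1a, which admits fatty acids to mitochondria, rose from 157 ± 52.9 to 440 ± 89.2 (1.47 ± 0.29, adjusted p = 2.95e-04). Fabp5, a relative of Fabp3, rose from 152 ± 30.9 to 445 ± 93.5 (1.49 ± 0.21, adjusted p = 7.00e-06). Acadl, an acyl-CoA dehydrogenase, shared the 8-cell onset of Fabp3 in part: it had 16.3 ± 7.54 in 2-cell embryos, 396 ± 77.2 at the 8-cell stage (3.92 ± 0.24, adjusted p = 1.55e-11) and 790.3 ± 181 in blastocysts (0.97 ± 0.24, adjusted p = 0.00287). Acsl4, an acyl-CoA synthetase, fell from 286 ± 100.1 to 14.6 ± 7.39 (-3.52 ± 0.27).

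**Figure D4:**
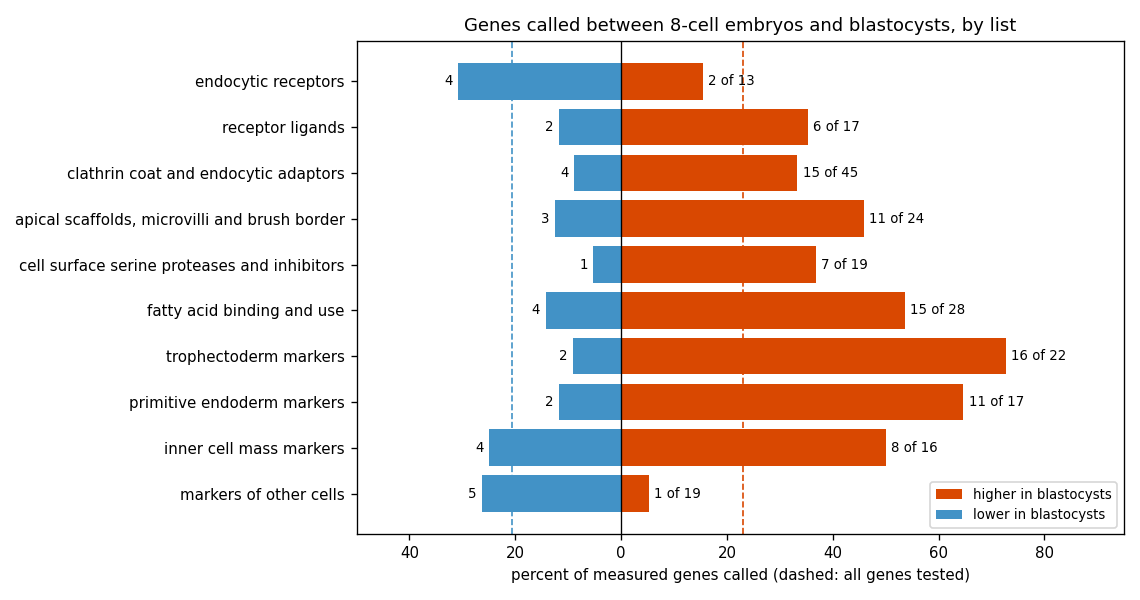
Percent of the measured genes of each list that limma called higher (right) or lower (left) in blastocysts than at the 8-cell stage; numbers are the genes called, of those measured, and the dashed lines mark all genes tested (23.1% higher, 20.6% lower). Of the 6 pathway lists, endocytic receptors (2 of 13) stay under the line for higher genes, and the other lists exceed it, from clathrin coat and adaptors (15 of 45) to fatty acid binding and use (15 of 28).

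Markers of the blastocyst's cell types moved in the same samples. Of 22 trophectoderm markers, 16 rose from the 8-cell stage to the blastocyst, 2 fell and 4 were not called (median 1.74), and their summed signal went from a range of 4604 to 5924 to one of 17573 to 20825. Krt8 (3.69 ± 0.40), Krt18 (4.20 ± 0.23), the desmosome gene Dsc2 (4.10 ± 0.25), Id2 (5.50 ± 0.41, and 6.10 without 8-cell array 3) and Gata3 (2.60 ± 0.22) rose, with adjusted p-values of limma between 9.95e-12 and 2.15e-07. Of 17 primitive endoderm markers, 11 rose, 2 fell and 4 were not called (median 1.53), with sums of 1818 to 2286 and 2877 to 3814. Among those that rose were the basement membrane chains Col4a1 (2.30 ± 0.36) and Lama1 (1.53 ± 0.28), the collagen chaperone Serpinh1 (2.42 ± 0.31), Sparc (2.36 ± 0.34), and Pdgfra on 1 of 2 probe sets (2.08 ± 0.35, and -0.10 on the other). The endoderm transcription factor Sox17, named after its values were seen, rose from 41.9 ± 12.02 to 153 ± 50.6 (1.61 ± 0.33, adjusted p = 3.99e-04). Cited1 fell by 2.39 ± 0.20 (adjusted p = 5.05e-09). Gata4 was not called (118 ± 97.5 and 69.9 ± 28.9, adjusted p = 0.491) and Gata6 fell by 0.91 ± 0.20 (adjusted p = 7.98e-04), but with the control transcript scaling both were higher in blastocysts (0.60 and 0.24) and neither was called.

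Of 16 inner cell mass markers, 8 rose, 4 fell and 4 were not called (median 0.43), with sums of 14492 to 15793 and 15033 to 15830. Sox2 rose by 3.66 ± 0.24 and Nanog by 0.69 ± 0.19 (adjusted p = 0.00642), while Pou5f1 was not called (725 ± 59.4 and 610 ± 54.2, adjusted p = 0.354) and was called higher with the control transcript scaling (0.92, adjusted p = 0.0255). Among the 4 that fell were Dppa4 (-1.44 ± 0.23), Klf2 (-1.36 ± 0.31) and Klf4 (-1.33 ± 0.18). Of 19 markers of other cells, 1 rose, 5 fell and 13 were not called (median -0.34). Wfdc2 was the 1 that rose (2.85 ± 0.36), and Ovgp1, whose 8-cell mean of 1619 ± 3062 rests on the second array, fell by 2.45 ± 0.93 (adjusted p = 0.0383), or by 0.93 without that array (adjusted p = 0.0302) and -3.21 without 8-cell array 4, and the call was lost in 7 of 29 alternatives (adjusted p from 0.0522 to 0.139), among them leaving out any of the blastocyst arrays. Whether the 7 genes rose in 1 of these cell types or in several was not tested, since whole embryos were measured.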

How the data were processed

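Per the labels, total RNA of each sample was amplified in 2 rounds and hybridised to 1 MG-U74Av2 array. The deposited values are linear signal intensities, 1 per probe set and array, scaled by the authors; the middle 96% of each array's values has a mean of 150.097 to 150.133. The software and the target of this scaling are not given in the sources used here. The number of arrays limits the precision. Log2(signal + 11) was fitted with a mean per stage in R 4.3.3 with limma 3.58.1 (lmFit, eBayes with trend, 12 residual degrees of freedom), over 8067 probe sets above 41.1 on at least 3 arrays; 66 control probe sets were left out. Tests were two-sided, Benjamini-Hochberg adjusted over all these probe sets within each comparison, called at 0.05, and checked on simulated data. Symbols, updated by Entrez ID, gave 6044 genes. The genes, lists and tests were chosen with earlier results of these data known. Named genes were the 7 genes, a set of partner genes, up to 4 called genes per list for the last step and 2 for each earlier one, and the 3 most correlated genes; those named are a part of these, picked with their values in view. Same-stage arrays correlated at 0.935 to 0.979. The alternatives were other scalings, offsets, filters and models, a replicate block and each array left out.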

Additional observations from a re-analysis of the deposited data

Results flagged for a closer look

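At the 8-cell stage, 2 of the 22 groups of arrays tested (11 probe sets in the 2 stages with 4 arrays) had 1 array far from the other 3, and chance flags about 1 in 20 such groups. For Dab2 on probe set 104633_at, the second 8-cell array gave 24.6, below the others at 48.8 to 55.5; its gap to the nearest is 0.830 of the range, just past Dixon's 95% critical value. This was also the array with the oviduct transcripts. For Fabp3, the third 8-cell array gave 241.2, above the others at 135.3 to 142.6, with a gap of 0.911 of the range in log2(signal + 11).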

How the results depend on the processing

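Results were recomputed under up to 29 alternatives, 12 settings and 17 arrays left out; Cubn and 10 named changes had no value under the stricter filter. Pdzk1 kept its calls in both early steps and Dab2 its call from 1-cell to 2-cell embryos in all 29. Scaling on the added control transcripts moved most counts, and it moved the median of all genes as given above. From oocytes to 1-cell embryos it called 4668 probe sets (2994 as deposited), 3 of the 7 genes (1), and 0 pathway genes higher (23) and 92 lower (25). It gave 9 pathway genes lower from 1-cell to 2-cell embryos (28), 16 higher from 2-cell to 8-cell embryos (34), and 100 higher (56) and 6 lower (18) in blastocysts. The median difference of the 7 genes became -0.56 from the 2-cell to the 8-cell stage and 3.88 at the last step, or 3.44 under a stricter filter (signal above 152.5). Centring on the median gave 25 pathway genes higher and 45 lower from 1-cell to 2-cell embryos (38 and 28), and leaving out single arrays gave 14 to 23 higher from oocytes to 1-cell embryos, the lowest without the second 1-cell array and 15 without the first.

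The differences that changed sign were small and uncalled as deposited, except those of Gata6 (-0.91, adjusted p = 7.98e-04, limma) and, from oocytes to 1-cell embryos, Fabp5, which was -0.32 with the control transcript scaling. With the control transcript scaling the oocyte to 1-cell differences were -0.62 for Cubn, -0.86 for Dab2 (adjusted p = 0.0466, limma), -0.58 for Fabp3, -0.78 for Lrp2, -0.75 for Slc9a3r1 (adjusted p = 0.0361, limma) and -0.51 for Tmprss2. That of Fabp3 was -0.21 with an offset of 1, -0.011 after quantile normalization and -0.53 to 0.34 leaving out arrays, and that of Lrp2 -0.23 to 0.17 leaving out arrays. From 1-cell to 2-cell embryos, Fabp3 was -0.043 after median centring, -0.063 after quantile normalization and -0.17 to 0.69 leaving out arrays; Lrp2 ranged from -0.35 to 0.10, and Slc9a3r1 from -0.21 to 0.0048, with 0.085 under the control transcript scaling. At the last step that scaling gave 0.60 for Gata4, 0.24 for Gata6 and, now called higher, 0.92 for Pou5f1 (adjusted p = 0.0255, limma) and 0.84 for Slc9a3r2 (adjusted p = 0.0299, limma), which was 0.16 with array weights. Leaving out arrays gave -0.84 to 0.050 for Gata4 and -0.35 to 0.26 for Slc9a3r2. The cause was not tested. Alternatives were computed for 88 of the named changes of list genes. Of their 2542 values, 2502 kept their direction and side of the threshold.

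The replicate numbers in the titles gave no sign of pairing, though low correlations cannot exclude it and the labels do not say. Residuals of same-numbered arrays correlated at -0.084 to 0.125 over 31 pairs. Their median was 0.015, against -0.011 for arrays of other numbers, and 6 arrays correlated best with their own number. With the number as a block, 1 and 2 of the 7 genes were called in the 2 early steps as before, 55 pathway genes rose and 20 fell in blastocysts, and the oocyte to 1-cell difference of Lrp2 was -0.094. Dim signals limit Cubn and the early values of Lrp2, Tmprss2 and Fabp3.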

Other observations

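Several genes of the same pathways shared with Pdzk1 a signal that was lower at the 8-cell stage than at the 2-cell stage and higher again in blastocysts. Pdzk1 had fallen from 1082 in oocytes to 138 in 2-cell embryos, whereas their 2-cell means ranged from 169.6 to 924. Of these genes, Rdx had already fallen by 2.38 ± 0.22 from 1-cell to 2-cell embryos. From the 2-cell to the 8-cell stage, Myo5b went from 543 ± 127 (SD, n = 3) to 14.2 ± 5.23 (n = 4), a change of -4.46 ± 0.19 (adjusted p = 4.39e-14, limma), with -1.34 on its other probe set. Eps15 fell by 2.65 ± 0.20 from 767 ± 72.4, Htra1 by 2.77 ± 0.25 from 411 ± 131, Lpl by 3.32 ± 0.27 from 169.6 ± 73.7 and Rdx by 2.20 ± 0.21 from 924 ± 79.4. All 5 then rose in blastocysts, though Myo5b and Lpl did so on 1 of 2 probe sets, and the falls and rises share the 8-cell arrays. Villin did not return: Vil1 fell by 5.18 ± 0.20 from 516 ± 111, and stayed dim in blastocysts. The sorting nexin Snx9 (-3.36 ± 0.18) and Slc27a2, a fatty acid transporter and acyl-CoA synthetase (-4.21 ± 0.26), fell at the same step, while Clta rose by 1.58 ± 0.14 and Serpinb6a by 3.90 ± 0.34. At this step 34 of 146 pathway genes rose and 45 fell (26.2% and 29.6% of all genes), with a median of -0.23. These genes were picked for how they moved, and no test of a shared course was made.

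From 1-cell to 2-cell embryos 38 of the 146 pathway genes rose and 28 fell (25.9% and 22.8% of all genes), and of the 13 endocytic receptors 4 rose and 3 fell. The genes named here were picked for the size of their change. Folr1, the folate receptor, had 11.2 ± 2.83 in 1-cell and 680 ± 113 in 2-cell embryos (n = 3 each), a change of 4.95 ± 0.20 (adjusted p = 2.95e-14, limma), and Tfrc went from 475 ± 147 to 3621 ± 695 (2.94 ± 0.21, and 0.98 on a second probe set). The metallothioneins Mt1 and Mt2 rose by 4.79 ± 0.30 and 5.33 ± 0.18, the phosphatase Alppl2 by 3.94 ± 0.23, Cpt1a by 2.41 ± 0.31 and the desaturase Scd1 by 2.38 ± 0.27. Rdx fell by 2.38 ± 0.22 and the protease Furin by 1.74 ± 0.18. At this step 6 of 19 markers of other cells rose as well, among them Ovgp1 (4.00 ± 0.99, adjusted p = 0.00199). From oocytes to 1-cell embryos 23 of the 146 pathway genes rose and 25 fell, where 1086 and 1267 of all 6044 genes did. Among those that rose were Ctnnb1, beta-catenin (1.30 ± 0.15), and Fabp5 (0.79 ± 0.21), which were not called with the control transcript scaling (0.17 and -0.32). Among those that fell were Prss12 (-3.23 ± 0.31), Rab11b (-1.89 ± 0.29), Serpinb6a (-1.84 ± 0.34), the adaptor subunit Ap3d1 (-1.82 ± 0.21), Spint1 (-1.79 ± 0.26), Pparg (-1.56 ± 0.22) and Clta (-1.15 ± 0.14).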
